A study of Homo sapiens with 10 samples.

Results

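The 52 genes described here belong to the interferon system: receptor chains, STAT and IRF transcription factors, IRF2-binding proteins, SOCS inhibitors and the antiviral or inducible effectors that interferon switches on. The rule used gene symbols alone and took every array row with 1 annotated symbol whose name begins as IFI, IFNAR, IFNGR, IRF, OAS, ISG, MX, STAT, GBP or SOCS family names do. Of 14232 genes with such a row, 52 matched, each with 1 row, and all 52 are accounted for. By role, 24 are regulators of the pathway and 28 are effectors. The names also bring in genes that are not known as parts of the interferon response, among them ISG20L2, a nuclear exonuclease of ribosome maturation.

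RNA came from SH-SY5Y, an established human neuroblastoma cell line, and was measured on Affymetrix Exon 1.0 ST arrays. There were 5 arrays of paraquat-treated cells (8, 12, 14, 18 and 20, as numbered in the sample titles) and 5 of untreated ctrl cells (7, 11, 13, 17 and 19). Paraquat is a herbicide that redox cycles in cells and produces superoxide, and the sources used here give neither its dose nor its duration. Both groups are the same line without any introduced gene or allele, no interferon or virus treatment is named in the labels, and separate cultures are not stated for the arrays of either group. Values are deposited RMA log2 expression values, 1 per transcript cluster, and array medians lay between 6.78 and 6.93. In bulk RNA, a transcript carried by fewer cells and a lower level per cell cannot be told apart.

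All 7 measured markers of sympathetic neuroblasts lay above the dimmest 20% of rows (row means up to 4.18), although 6 of them were lower and 1 higher in paraquat. The leukocyte markers PTPRC, CD3E and LYZ lay within the dimmest 20% in both groups. CD14, CD68, CSF1R and NKG7 lay above it in both groups, with ctrl means of 5.21, 7.74, 4.52 and 6.58. The summed log2 values of 7 leukocyte markers were 33.4 to 34.4 in paraquat and 31.4 to 32.5 in ctrl, through CD68 (1.33) and CD14 (0.64), and their part in the results was not tested. Of 9 fibroblast and endothelial markers 1 was lower and 0 were higher by limma (4 lower and 0 higher at an unadjusted p under 0.05), with summed log2 values of 57.1 to 58.0 in paraquat and 60.1 to 62.6 in ctrl. The marker that passed was LUM (-1.53, ctrl mean 7.98). Only PECAM1 of the 9 lay within the dimmest 20% of rows, and COL3A1 had the highest ctrl mean (10.3). The part of these markers in the results was not tested either. Array ctrl 11 stood apart among the members, with the highest ctrl value for 25 of 52 genes and an SD of its deviations from the ctrl mean of 0.297, against 0.148 to 0.188 in the other ctrl arrays.

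Interferons bind cell-surface receptors, and receptor-bound JAK kinases then phosphorylate STAT proteins, which enter the nucleus. Type I interferon drives a STAT complex with IRF9 to the interferon-stimulated response element (ISRE), and interferon gamma drives STAT dimers to the gamma-activated site (GAS). The genes switched on include enzymes and binding proteins that degrade or block viral RNA, and SOCS proteins that shut the receptor down. Several IRF genes, IRF1 above all, also respond to NF-kB and other stress signals without interferon.

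After paraquat the regulators and the effectors of this system differed in what passed the test. Of 24 regulators, 6 rose and 0 fell, led by IRF1 (2.62-fold higher), IRF2BP2 (2.19-fold) and SOCS1 (2.02-fold). Of 28 effectors, 1 rose and 7 fell: the exonuclease ISG20 was 3.14-fold higher, while IFIT1, which binds viral RNA, was 2.84-fold lower as measured, with a paraquat mean within the dimmest 20% of rows. The median log2 change was 0.20 over the regulators and 0.01 over the effectors, and it was 0.00 over all rows. Over all 22011 rows, limma called 8.51% higher and 11.5% lower at an adjusted p under 0.05, or 20.0% in either direction. Over the 14232 genes the members come from, 9.55% were higher and 14.2% lower. After median centring of the arrays, 2241 rows were higher and 2211 lower, against 1873 and 2524 as deposited. Against this background 25.0% of regulators and 3.57% of effectors were higher, and 25.0% of effectors were lower. Without the IRF2-binding proteins, which matched by name, 4 of 21 regulators were higher (19.0%). At an unadjusted p under 0.05, limma placed 1 regulator, SOCS3, lower. With 1 array left out, 6 to 8 regulators were higher and 5 to 7 effectors lower, and without both ctrl 11 and paraquat 12 these counts were 7 and 6. The share of all rows called higher was 9.39% without ctrl 11, where 8 regulators were higher, and 9.17% without both arrays. The difference between the sets of regulators and effectors was not tested, and most members of both, 18 and 20, did not pass in either direction. Both group means of 13 effectors and 1 regulator lay within the dimmest 20% of rows, where a transcript cannot be told from background and changes are compressed.

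**Figure D1:**
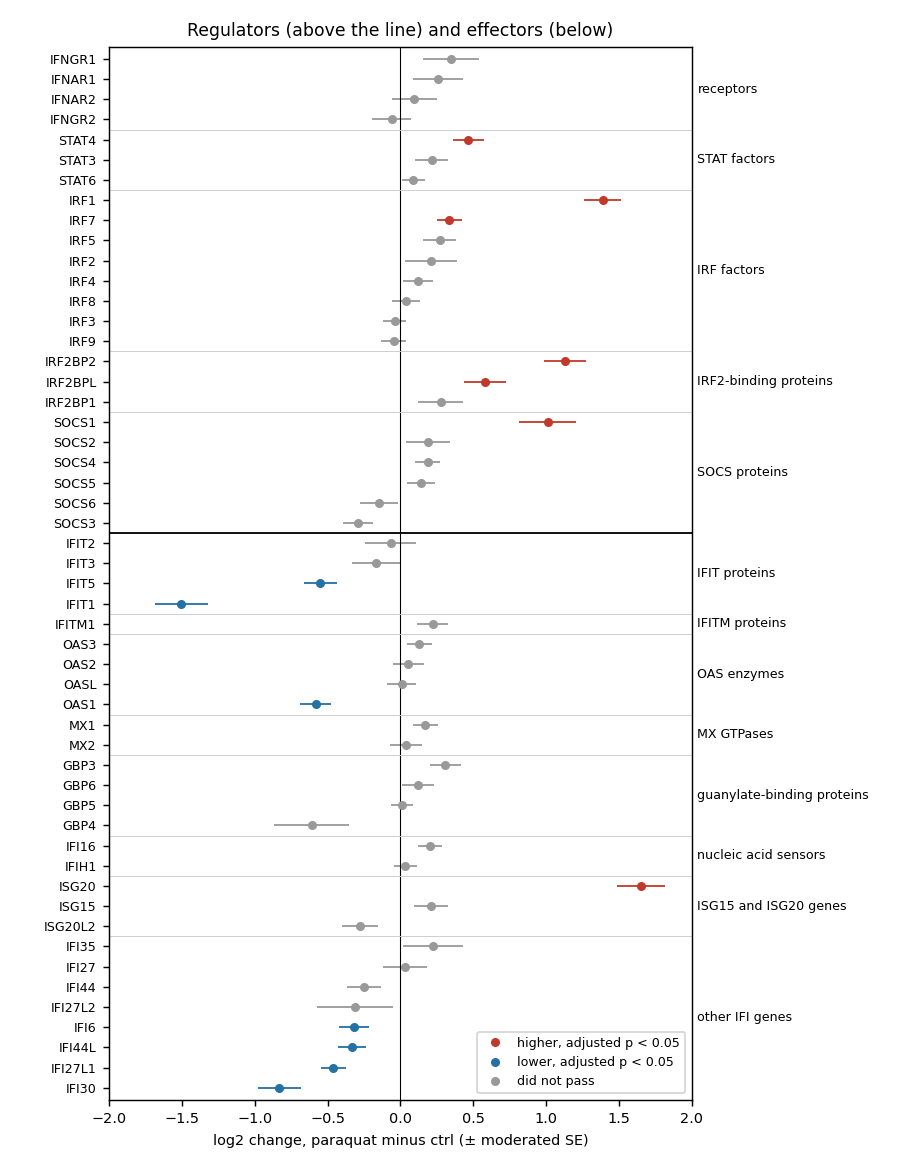
Log2 change of each of the 52 genes (x axis, paraquat minus ctrl, bars are the moderated SE from limma), regulators above the black line and effectors below it, grouped by family, with 5 arrays in each group. The 6 called regulators lie to the right of 0, and of the 8 called effectors only ISG20 does.

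Averaged over the 24 regulators, the deviation from the ctrl mean was 0.22 to 0.36 log2 units in the paraquat arrays and -0.10 to 0.09 in the ctrl arrays. Over the 28 effectors it was -0.19 to -0.06 in the paraquat arrays and -0.06 to 0.13 in the ctrl arrays. The groups' ranges did not overlap for the regulators, whereas paraquat 12 (-0.06) and ctrl 7 (-0.06) met for the effectors. The ctrl averages are centred by construction, since the ctrl mean was subtracted. The averages include the genes that passed, so they restate those changes and do not show a shift of the whole set. The same averages were not computed over all genes.

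**Figure D2:**
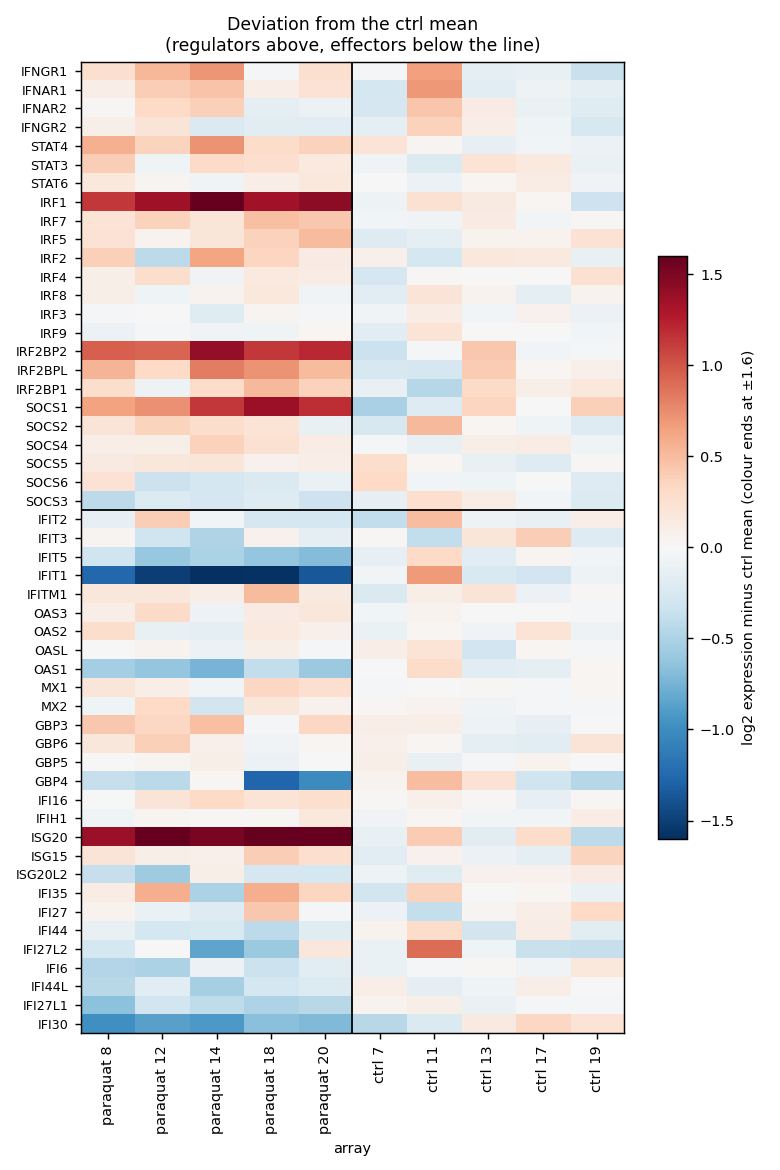
Deviation of each gene (rows) from its ctrl mean in each array (columns, paraquat left and ctrl right), in log2 units, with the colour scale ending at ±1.6. Regulators above the black line include the red rows of IRF1, IRF2BP2 and SOCS1, and below it ISG20 is red and IFIT1 blue in all 5 paraquat arrays.

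Promoter windows, from 250 bases before to 50 after a RefSeq transcription start (GRCh38.p14), were searched on both strands for 3 consensus sequences: the ISRE core (GAAA, any 2 bases, then GAAA), the GAS consensus TTCNNNGAA, which reads alike on both strands, and the NF-kB consensus. RefSeq windows matched 41 of 52 members by gene identifier, and a gene counted once over its windows. There was no entry for IRF2, IRF3, IRF7, SOCS2, SOCS5, IFNAR2, IFIT2, MX2, OAS2, OASL and GBP5. An ISRE core occurred in 1 of 18 regulators and 15 of 23 effectors, against 4.38% of all 27305 genes with a window. A GAS occurred in 3 regulators and 6 effectors (9.38% of all genes), and an NF-kB consensus in 4 regulators and 4 effectors (13.2% of all genes). Matches are descriptions of letters and not shown sites.

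The following stretches are shown because they hold ISRE, GAS and NF-kB matches of 7 members that passed the test, from the largest increase to the largest decrease. Each is written 5′ to 3′ in the gene's direction, with 12 bases or fewer on either side, and capitals mark the matches. An ISRE core on the opposite strand reads as its reverse complement.
ISG20 (chr15:88638935-88638968, plus strand): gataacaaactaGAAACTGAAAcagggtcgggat
IRF1 (chr5:132490802-132490909, minus strand): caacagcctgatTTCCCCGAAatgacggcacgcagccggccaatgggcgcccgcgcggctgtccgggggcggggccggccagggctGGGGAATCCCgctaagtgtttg
SOCS1 (chr16:11256250-11256329, minus strand): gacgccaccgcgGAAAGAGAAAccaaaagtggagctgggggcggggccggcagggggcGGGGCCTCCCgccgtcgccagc
IFI6 (chr1:27672264-27672360, minus strand): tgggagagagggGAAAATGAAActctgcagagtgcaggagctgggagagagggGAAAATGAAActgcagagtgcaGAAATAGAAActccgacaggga
IFI44L (chr1:78620272-78620396, plus strand): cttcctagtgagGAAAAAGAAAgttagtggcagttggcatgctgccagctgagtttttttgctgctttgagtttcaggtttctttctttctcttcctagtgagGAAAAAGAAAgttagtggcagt
IFIT5 (chr10:89414511-89414579, plus strand): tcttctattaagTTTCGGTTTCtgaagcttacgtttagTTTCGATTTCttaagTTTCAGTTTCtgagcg
IFIT1 (chr10:89392495-89392541, plus strand): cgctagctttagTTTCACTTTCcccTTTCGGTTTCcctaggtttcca
The first capitals of IRF1 are its GAS and the second its NF-kB match, and in SOCS1 an ISRE core precedes an NF-kB match. IFIT1 has 2 ISRE cores, IFIT5 and IFI6 have 3 each and IFI44L has 2. ISG20 has 1 ISRE core, so that ISRE cores lie both in the effector that rose and in 4 of the 7 that fell. Among the 15 effectors with a window that did not pass, 10 held an ISRE core too.

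Values per array follow the array numbers, paraquat 8, 12, 14, 18 and 20 and ctrl 7, 11, 13, 17 and 19, on the log2 scale. Changes are log2 paraquat minus ctrl ± SE, and means carry the SD over 5 arrays. Adjusted p-values are from limma, adjusted over all rows.

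None of the 4 receptor chains passed the test with all arrays (0 by limma, and 0 at an unadjusted p under 0.05). IFNAR1, a chain of the type I interferon receptor, read 8.18, 8.48, 8.53, 8.18 and 8.31 in paraquat arrays, against 7.79, 8.78, 7.89, 8.00 and 7.93 in ctrl arrays. IFNGR1, the ligand-binding chain of the interferon gamma receptor, read 8.54, 8.81, 8.99, 8.26 and 8.53 in paraquat arrays, against 8.25, 8.94, 8.13, 8.15 and 7.93 in ctrl arrays. In both genes ctrl 11 was high and the other 4 ctrl arrays lay below the paraquat mean. The changes with all arrays were 0.26 ± 0.17 for IFNAR1 (adjusted p = 0.374) and 0.35 ± 0.19 for IFNGR1 (adjusted p = 0.262). Without ctrl 11, IFNAR1 changed by 0.43 ± 0.10 (adjusted p = 0.0119) and IFNGR1 by 0.51 ± 0.14 (adjusted p = 0.0295), and both passed upward. Without ctrl 11 and paraquat 12, IFNAR1 passed (0.40, adjusted p = 0.024) and IFNGR1 did not (0.46, adjusted p = 0.0595).

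The partner chains did not pass in any of these fits. IFNAR2 read 7.66, 7.96, 8.03, 7.51 and 7.55 in paraquat arrays, against 7.38, 8.09, 7.78, 7.54 and 7.46 in ctrl arrays. IFNGR2 read 9.36, 9.46, 9.04, 9.08 and 9.08 in paraquat arrays, against 9.12, 9.63, 9.36, 9.20 and 9.0 in ctrl arrays. Their groups overlapped, with ctrl 11 the highest ctrl array in both, as it was in all 4 chains. The changes were 0.10 ± 0.16 (adjusted p = 0.752) and -0.06 ± 0.13 (adjusted p = 0.831). A row shared by IL10RB, a chain of the interleukin-10 and lambda interferon receptors, and IFNAR2 had a change of 0.16 ± 0.13 (adjusted p = 0.472).

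**Figure D3:**
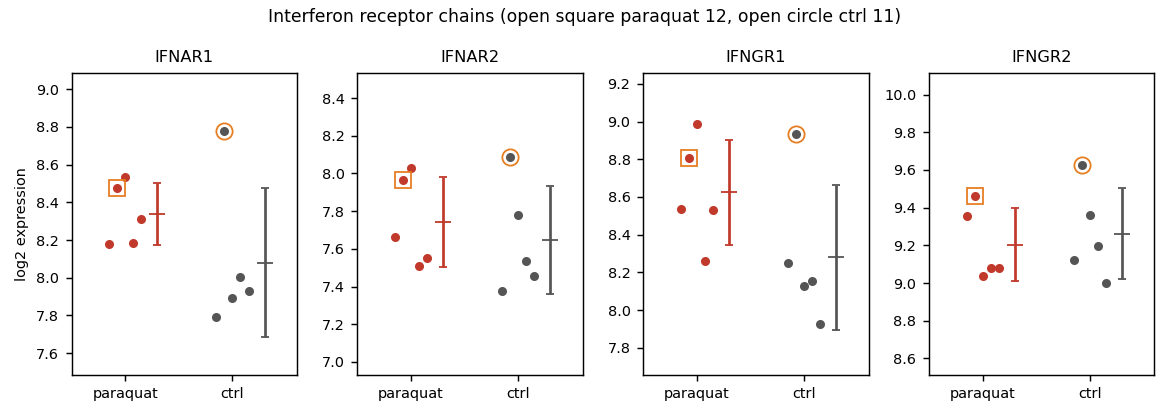
Log2 expression of the 4 interferon receptor chains in each array, with the group mean and SD (n = 5) beside the points, paraquat left and ctrl right. The open circle marks ctrl 11, the highest ctrl array in every panel (8.78 for IFNAR1), and the open square marks paraquat 12.

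Among the STAT factors, which carry the receptor signal to the nucleus, 1 of 3 rose and 0 fell (0 also at an unadjusted p under 0.05). STAT4, best known for interleukin-12 signalling in lymphocytes (transcript cluster 2592356), read 4.54, 4.33, 4.69, 4.27 and 4.34 in paraquat arrays, against 4.19, 4.02, 3.84, 3.92 and 3.88 in ctrl arrays. Every paraquat array lay above every ctrl array, by as little as 0.08 between paraquat 18 and ctrl 7. The change was 0.47 ± 0.11 (adjusted p = 0.00977), with a ctrl mean of 3.97 inside the dimmest 20% of rows. STAT3, the main relay of interleukin-6 family cytokines, read 11.63, 11.17, 11.55, 11.51 and 11.40 in paraquat arrays, against 11.18, 11.02, 11.45, 11.40 and 11.13 in ctrl arrays. Its groups overlapped and the change was 0.21 ± 0.12 (adjusted p = 0.249). STAT6, which relays interleukin-4, read 5.07, 4.95, 4.85, 5.01 and 5.08 in paraquat arrays, against 4.91, 4.81, 4.93, 5.02 and 4.85 in ctrl arrays, and its change was 0.09 ± 0.08 (adjusted p = 0.524). STAT5A and STAT5B shared both of their rows, of which 1 changed by -0.39 ± 0.11 (adjusted p = 0.0234) and the other by 0.27 ± 0.10 (adjusted p = 0.0728). The row that passed did so downward. Its annotation names both genes, STAT5B before STAT5A, so it is not among the regulators counted here.

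Of 8 IRF factors, 2 rose and 0 fell (0 also at an unadjusted p under 0.05). IRF1, an activator of interferon-inducible and antigen-presentation genes (transcript cluster 2875348), read 8.52, 8.74, 9.07, 8.74 and 8.82 in paraquat arrays, against 7.31, 7.63, 7.53, 7.43 and 7.05 in ctrl arrays. The groups lay apart, with the lowest paraquat array 0.89 above the highest ctrl array. The means were 8.78 ± 0.20 in paraquat and 7.39 ± 0.22 in ctrl, a change of 1.39 ± 0.13 (adjusted p = 3.23e-05). IRF7, the factor that amplifies type I interferon genes (transcript cluster 3358174), read 7.26, 7.42, 7.24, 7.53 and 7.48 in paraquat arrays, against 7.00, 6.99, 7.18, 7.00 and 7.06 in ctrl arrays. Its arrays did not overlap either, although the step was smaller, 0.34 ± 0.09 (adjusted p = 0.0164). Arrays failed to overlap in 7.01% of all rows upward and in 9.22% downward.

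IRF2, which competes with IRF1 for its sites, did not pass. It read 9.25, 8.46, 9.50, 9.21 and 9.01 in paraquat arrays, against 8.95, 8.59, 9.04, 9.03 and 8.76 in ctrl arrays, with paraquat 12 the lowest array of all, and the change was 0.21 ± 0.18 (adjusted p = 0.489). IRF3, the factor activated by cytosolic nucleic acid sensing, read 8.06, 8.09, 7.89, 8.13 and 8.06 in paraquat arrays, against 8.03, 8.20, 8.04, 8.15 and 8.00 in ctrl arrays, a change of -0.04 ± 0.08 (adjusted p = 0.806). IRF9, the DNA-binding partner of the STATs on the ISRE, read 8.09, 8.16, 8.13, 8.11 and 8.22 in paraquat arrays, against 8.02, 8.40, 8.20, 8.18 and 8.15 in ctrl arrays, a change of -0.05 ± 0.08 (adjusted p = 0.782). The groups of both genes overlapped.

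IRF5, a factor of Toll-like receptor signalling, read 5.59, 5.41, 5.55, 5.73 and 5.86 in paraquat arrays, against 5.15, 5.21, 5.42, 5.41 and 5.59 in ctrl arrays. Its change was 0.27 ± 0.11 (adjusted p = 0.128), with overlapping groups. The lymphoid and myeloid factors IRF4 and IRF8 were dim. IRF4 read 4.46, 4.65, 4.31, 4.53 and 4.49 in paraquat arrays, against 4.10, 4.38, 4.37, 4.37 and 4.61 in ctrl arrays, and IRF8 read 4.10, 3.94, 4.07, 4.18 and 3.96 in paraquat arrays, against 3.84, 4.22, 4.07, 3.87 and 4.08 in ctrl arrays. Both means of IRF8 lay within the dimmest 20% of rows, and the changes were 0.12 ± 0.10 (adjusted p = 0.495) and 0.04 ± 0.10 (adjusted p = 0.848).

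The IRF2-binding proteins are transcriptional cofactors, of which IRF2BP1 and IRF2BP2 were named as corepressors of IRF2. Of 3 genes, 2 rose and 0 fell by limma (0 also at an unadjusted p under 0.05). IRF2BP2 (transcript cluster 2461531) read 9.72, 9.69, 10.17, 9.90 and 9.98 in paraquat arrays, against 8.42, 8.74, 9.20, 8.72 and 8.75 in ctrl arrays. No ctrl array reached the lowest paraquat array, and the change was 1.13 ± 0.14 (adjusted p = 0.000271). IRF2BPL (transcript cluster 3572869) read 9.11, 8.88, 9.38, 9.28 and 9.07 in paraquat arrays, against 8.31, 8.29, 8.98, 8.60 and 8.64 in ctrl arrays. Here ctrl 13 lay above paraquat 12, and the change of 0.58 ± 0.14 passed (adjusted p = 0.0151). IRF2BP1 had a change of 0.28 ± 0.15 (adjusted p = 0.263), and ctrl 13, at 8.86, again overlapped the paraquat arrays.

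The 6 SOCS genes encode inhibitors of cytokine receptors, and 1 rose while 0 fell by limma (1 lower, SOCS3, at an unadjusted p under 0.05). SOCS1, which blocks JAK kinases at interferon receptors (transcript cluster 3680213), read 6.86, 6.95, 7.35, 7.59 and 7.40 in paraquat arrays, against 5.70, 6.01, 6.55, 6.22 and 6.60 in ctrl arrays. The lowest paraquat array stood above the highest ctrl array, ctrl 19, and ctrl values spread over 0.90 log2 units. The means were 7.23 ± 0.31 in paraquat and 6.22 ± 0.38 in ctrl, a change of 1.01 ± 0.20 (adjusted p = 0.00391). SOCS3, the inhibitor of interleukin-6 family receptors, had a change of the opposite sign, -0.29 ± 0.10, that did not pass (adjusted p = 0.0742). It read 7.00, 7.20, 7.16, 7.21 and 7.09 in paraquat arrays, against 7.29, 7.69, 7.54, 7.37 and 7.20 in ctrl arrays, and ctrl 19 lay among the paraquat arrays. Without ctrl 19 it passed downward (-0.34, adjusted p = 0.0432). SOCS2, SOCS4, SOCS5 and SOCS6 had changes from -0.15 (SOCS6) to 0.19 (SOCS2), and none passed. A row annotated to DLG2 and then SOCS6 was lower in paraquat (-1.04 ± 0.13, adjusted p = 0.000258). The row of SOCS6 alone changed by -0.15 ± 0.13 (adjusted p = 0.522), so the decrease of the shared row is not shown for SOCS6.

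**Figure D4:**
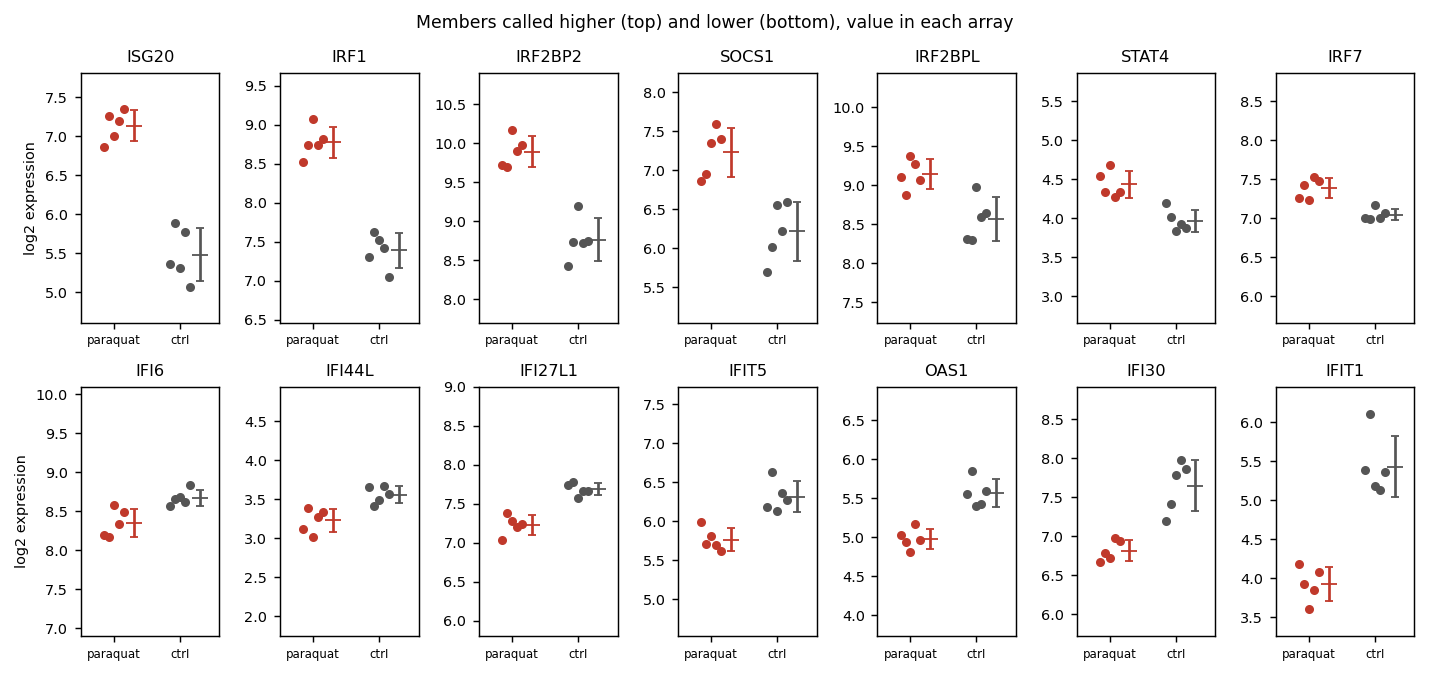
Log2 expression of the 14 genes that passed the test, in each array, with the group mean and SD (n = 5) beside the points, paraquat left and ctrl right. Each y axis spans 3.2 log2 units; the 7 genes in the top row were higher and the 7 in the bottom row lower in paraquat, with overlap between groups in IRF2BPL and IFI6.

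The IFIT proteins bind RNA that lacks the marks of host mRNA, and of 4 genes 2 fell and 0 rose by limma (0 also at an unadjusted p under 0.05). IFIT1 (transcript cluster 3257246) read 4.18, 3.93, 3.61, 3.85 and 4.08 in paraquat arrays, against 5.38, 6.11, 5.18, 5.13 and 5.36 in ctrl arrays. Ctrl 11 was the highest array, and the highest paraquat array was 0.95 below the lowest ctrl array. The means were 3.93 ± 0.22 in paraquat and 5.43 ± 0.39 in ctrl, a change of -1.50 ± 0.18 (adjusted p = 0.0002). Its paraquat mean lay within the dimmest 20% of rows, where RMA compresses differences. IFIT5 (transcript cluster 3257268) read 5.99, 5.70, 5.81, 5.69 and 5.62 in paraquat arrays, against 6.18, 6.63, 6.13, 6.35 and 6.27 in ctrl arrays, without overlap, and fell by 0.55 ± 0.11 on the log2 scale (adjusted p = 0.00524). IFIT2 and IFIT3, their neighbours on the chromosome, had both means in the dimmest 20% of rows, with changes of -0.07 and -0.17, and did not pass.

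The OAS enzymes make the 2-5A messenger that activates RNase L, and of 4 genes 1 fell and 0 rose by limma (0 also at an unadjusted p under 0.05). OAS1 (transcript cluster 3432438) read 5.03, 4.94, 4.82, 5.17 and 4.97 in paraquat arrays, against 5.56, 5.85, 5.40, 5.42 and 5.60 in ctrl arrays. No paraquat array reached the lowest ctrl array, and the change was -0.58 ± 0.11 (adjusted p = 0.00261). OAS2, OAS3 and OASL had values of 0.05, 0.13 and 0.01 for the log2 change and did not pass. OAS2 lay within the dimmest 20% of rows in both groups.

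Genes named for induction by interferon held the other decreases: 4 of 8 fell and 0 rose by limma (0 also at an unadjusted p under 0.05). IFI30, a thiol reductase of the lysosome that opens disulfide bonds of antigens (transcript cluster 3824874), read 6.66, 6.78, 6.72, 6.97 and 6.93 in paraquat arrays, against 7.20, 7.41, 7.79, 7.97 and 7.86 in ctrl arrays. Paraquat arrays stayed within 0.31 of each other and all lay below ctrl 7, the lowest ctrl array. The means were 6.81 ± 0.13 in paraquat and 7.65 ± 0.33 in ctrl, a change of -0.83 ± 0.15 (adjusted p = 0.0024). IFI27L1, a relative of the mitochondrial protein IFI27 (transcript cluster 3549551), read 7.03, 7.38, 7.27, 7.20 and 7.24 in paraquat arrays, against 7.74, 7.78, 7.57, 7.67 and 7.67 in ctrl arrays. It fell by 0.46 ± 0.09 on the log2 scale (adjusted p = 0.00292), and its groups did not overlap, whereas IFI27 itself had a change of 0.03 ± 0.15 (adjusted p = 0.927).

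The remaining decreases were small. IFI6, a membrane protein that restrains apoptosis (transcript cluster 2403261), read 8.20, 8.17, 8.58, 8.33 and 8.48 in paraquat arrays, against 8.57, 8.65, 8.69, 8.61 and 8.83 in ctrl arrays. Paraquat 14 overlapped ctrl 7, and the change of -0.32 ± 0.10 (adjusted p = 0.0463) held in 1 of 10 fits that left out 1 array, the fit without paraquat 14 (adjusted p = 0.0215, against 0.0564 to 0.106 in the other fits). IFI44L (transcript cluster 2343473) read 3.12, 3.39, 3.02, 3.27 and 3.33 in paraquat arrays, against 3.66, 3.41, 3.49, 3.67 and 3.57 in ctrl arrays, with both means in the dimmest 20% of rows. Its change of -0.33 ± 0.10 (adjusted p = 0.0315) held in 4 of the 10 and ended without ctrl 7, 17 or 19 or paraquat 8, 14 or 18 (adjusted p up to 0.0819). Both calls were lost after median centring (adjusted p = 0.079 for IFI6 and 0.108 for IFI44L). The call of IFI6 was also lost after quantile normalization. IFI44, IFI27L2 and IFI35 changed by -0.25, -0.31 and 0.22 without passing.

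ISG20, an exonuclease that degrades single-stranded RNA (transcript cluster 3607275), was the only effector that passed upward with all arrays and had the largest change of the 52 genes. It read 6.87, 7.26, 7.00, 7.20 and 7.35 in paraquat arrays, against 5.36, 5.89, 5.32, 5.78 and 5.07 in ctrl arrays. Every paraquat array was at least 0.97 above every ctrl array. The means were 7.14 ± 0.20 in paraquat and 5.48 ± 0.34 in ctrl, a change of 1.65 ± 0.16 (adjusted p = 4.85e-05). ISG15, the ubiquitin-like modifier, had a change of 0.21 ± 0.12 (adjusted p = 0.255) with ctrl 19, at 6.44, among the paraquat values. ISG20L2 had a change of -0.28 ± 0.12 (adjusted p = 0.147), and without paraquat 14 it passed downward (-0.37, adjusted p = 0.0283).

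Among the 9 other effectors 0 passed by limma (2 higher and 1 lower at an unadjusted p under 0.05). The MX GTPases, which trap viral nucleocapsids, had changes of 0.17 (MX1) and 0.04 (MX2), with all means in the dimmest 20% of rows. The sensors IFIH1, also called MDA5, and IFI16 were as dim, with changes of 0.03 and 0.20. IFITM1, which blocks viral entry, had a change of 0.22 with both means in the dimmest 20%. Rows shared by IFITM2 and IFITM3 changed by 0.11 (adjusted p = 0.639) and 0.41 (adjusted p = 0.308). Of the guanylate-binding proteins, which attack pathogen-containing vacuoles, GBP4 had the largest change, -0.61 ± 0.26 (adjusted p = 0.13), and read 5.46, 5.40, 5.86, 4.56 and 4.81 in paraquat arrays, against 5.88, 6.32, 6.06, 5.51 and 5.37 in ctrl arrays. Its groups overlapped widely. GBP3, GBP5 and GBP6 had changes of 0.31, 0.01 and 0.12, all in the dimmest 20%, and GBP3 passed upward without paraquat 18 (0.39, adjusted p = 0.0117) and after median centring (adjusted p = 0.0239). The rows shared by GBP1 with GBP3 and by GBP7 with GBP2 did not pass.

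Further genes of the system, from lists of ligands, kinases, sensors and induced genes, were read from the same fit. A row with 1 symbol existed for 9 of 21 listed ligands and 11 of 14 JAK kinases and brakes. It existed for 16 of 17 sensing genes and 31 of 34 other induced genes, and the remaining listed genes were not assessed. None of 9 interferon ligand genes passed with all arrays (0 by limma, and 1 higher, IFNG, at an unadjusted p under 0.05; IFNA5 passed downward without ctrl 13), with changes from -0.34 (IFNA5) to 0.22 (IFNG), and 7 of the 9, including IFNB1, lay in the dimmest 20% of rows in both groups. Of 11 JAK kinases and receptor brakes, 0 passed by limma with all arrays as deposited (2 higher and 1 lower at an unadjusted p under 0.05), while without ctrl 11 PTPN2 passed upward (0.39, adjusted p = 0.0465) and CISH downward (-0.40, adjusted p = 0.0297). JAK2 had the largest change, 0.37 ± 0.13 (adjusted p = 0.0663), and passed after median centring (adjusted p = 0.0218) or quantile normalization (adjusted p = 0.0407). JAK1 changed by 0.35 ± 0.14 (adjusted p = 0.101), and it too passed after median centring (adjusted p = 0.0384).

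Of 16 genes of nucleic acid sensing, 2 rose (12.5%) and 1 fell (6.25%), against 9.55% and 14.2% of all genes. TBK1, the kinase that phosphorylates IRF3, read 8.89, 8.85, 8.83, 8.64 and 8.73 in paraquat arrays, against 8.19, 8.72, 8.10, 8.21 and 7.91 in ctrl arrays. It rose by 0.56 ± 0.14 (adjusted p = 0.014), with ctrl 11 overlapping the paraquat arrays. TLR3, a receptor for double-stranded RNA, rose by 0.38 ± 0.10 (adjusted p = 0.0175) within the dimmest 20% of rows. TRIM25, a ubiquitin ligase that activates the sensor RIG-I, fell by 0.39 ± 0.10 on the log2 scale (adjusted p = 0.0209), a call that ended without ctrl 13, ctrl 17 or paraquat 20 (adjusted p up to 0.0588), whereas RIG-I itself (RIGI) had a change of 0.05 ± 0.11 (adjusted p = 0.83).

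Of 31 other interferon-stimulated genes, 4 rose (12.9%) and 2 fell (6.45%), with a median change of -0.03. Over all genes 9.55% were higher and 14.2% lower. The larger share of decreases among the 28 effectors (3.57% higher, 25.0% lower) was thus not seen in this list. LAMP3, a lysosomal membrane protein, read 6.61, 6.38, 6.98, 6.68 and 6.92 in paraquat arrays, against 5.56, 4.97, 5.54, 5.50 and 5.39 in ctrl arrays, without overlap, and rose by 1.32 ± 0.15 (adjusted p = 0.0001). TRIM22, an antiviral ubiquitin ligase, rose by 0.76 ± 0.10 (adjusted p = 0.000331) from a ctrl mean in the dimmest 20% of rows. The other increases, of NMI (0.57, adjusted p = 0.0472) and TRIM21 (0.48, adjusted p = 0.0347), held in 3 and 4 of 10 fits that left out 1 array, and both means of NMI lay in the dimmest 20% of rows. PARP9, an ADP-ribosyltransferase family member, read 7.61, 6.97, 7.77, 7.30 and 6.94 in paraquat arrays, against 8.47, 8.43, 8.09, 8.18 and 8.10 in ctrl arrays, and fell by 0.93 ± 0.17 on the log2 scale (adjusted p = 0.00262). UBE2L6, the enzyme that passes ISG15 on to its ligases, read 9.38, 9.34, 9.22, 9.47 and 9.38 in paraquat arrays, against 9.70, 10.24, 9.84, 10.03 and 9.87 in ctrl arrays. It fell by 0.58 ± 0.11 on the log2 scale (adjusted p = 0.00294) with no overlap, while the activating enzyme UBA7 and the ligase HERC5 changed by 0.03 and 0.37 without passing. HERC5 did pass with array weights (adjusted p = 0.0383), median centring (adjusted p = 0.0454) and quantile normalization (adjusted p = 0.0409). EIF2AK2, which encodes the RNA-activated kinase PKR, read 7.11, 7.28, 8.08, 7.22 and 7.15 in paraquat arrays, against 7.80, 8.01, 7.71, 7.79 and 7.97 in ctrl arrays. Paraquat 14 alone reached the ctrl arrays. With all arrays the change was -0.49 ± 0.17 (adjusted p = 0.0711), and without paraquat 14 it was -0.67 and passed (adjusted p = 0.000761). RSAD2, the antiviral enzyme viperin, had a change of -0.18 ± 0.16 (adjusted p = 0.516). Of 3 interferon-inducible chemokines, CXCL11 rose (0.87 ± 0.27, adjusted p = 0.0467) within the dimmest 20% of rows and with overlapping arrays, a call kept in 2 of 10 fits that left out 1 array, those without ctrl 11 and without paraquat 18. CXCL9 and CXCL10 changed by 0.20 and -0.18 without passing.

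**Figure D5:**
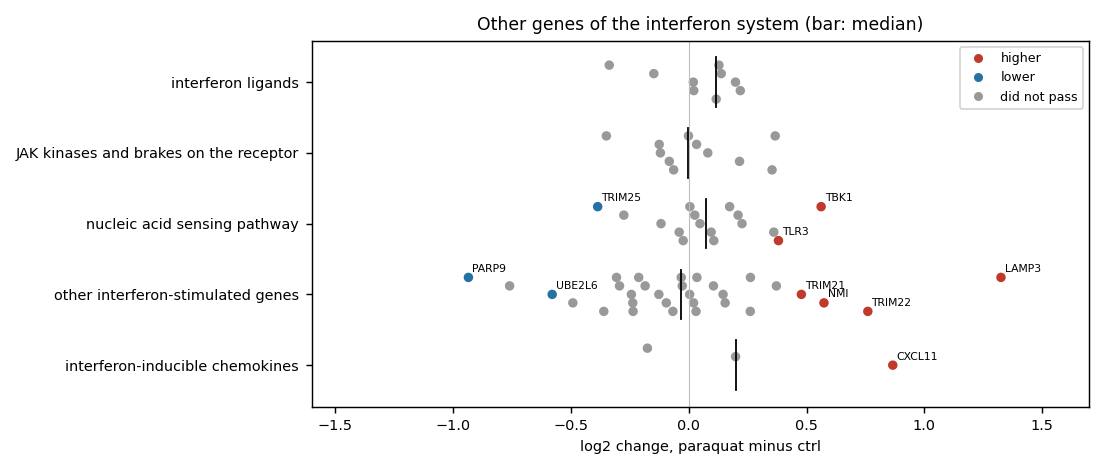
Log2 change (x axis, paraquat minus ctrl) of the measured genes of 5 further lists of the interferon system, each point a gene and the black bar the list's median, with genes that passed named. No ligand and no JAK kinase or receptor brake passed in the plotted fit (all arrays, deposited scale), whereas JAK1 and JAK2 passed after median centring, and among other interferon-stimulated genes LAMP3 lies farthest right (1.32) and PARP9 farthest left (-0.93).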

How the data were processed

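The deposited values are log2 expression values that the authors made with RMA, per the submitters' processing notes; which software, version, filters and build they used is not given in the sources used here. Values ran from 1.07 to 14.37, which fits a log2 scale. RMA subtracts background, equalises arrays and summarises probes, which compresses changes of dim transcripts, and no detection calls were used. Rows were named through the platform annotation, and 14404 of 14432 rows with 1 symbol matched RefSeq (GRCh38.p14) by gene identifier. No 2 arrays shared more than 0.0454% identical values.

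Every row was fitted with limma 3.58.1 (R 4.3.3), group as the only term, 5 paraquat against 5 ctrl arrays, with 8 residual and 3.06 prior degrees of freedom, no filter, two-sided tests and Benjamini-Hochberg adjustment over 22011 rows; the script was tested on simulated data. The threshold was an adjusted p under 0.05. The number of arrays limits the precision (median SE of a log2 change 0.13), and p-values reflect only how these arrays vary, possibly for technical reasons.

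The members and lists were chosen with earlier results of these data known. Members that passed and all receptor, STAT and IRF genes are given by array, and so are SOCS3 and GBP4, chosen after their values were seen; the rest are given by change or range; of each further list the passing genes with the largest changes are named, and IFNA5, IFNG, JAK1, JAK2, PTPN2, CISH, RIGI, UBA7, HERC5, NMI, TRIM21, EIF2AK2, RSAD2 and the shared rows were named after their values were seen. Alternatives covered scaling, weights, moderation, threshold, a minimum fold, dim rows and arrays left out; those for genes of the further lists, and a block of consecutive array numbers, were added after the data were seen. The promoter stretch of 1 member is not reported here.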

Additional observations from a re-analysis of the deposited data

Results flagged for a closer look

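The following values lay far from the other 4 arrays of their group by Dixon's criterion for 5 values, 14 flags over 244 groups of 5 arrays, where chance gives about 1 in 20. Array ctrl 11 was high for IFIT1 (6.11, against 5.13 to 5.38 in the other ctrl arrays), IFNAR1 (8.78, against 7.79 to 8.00), IFI27L2 (6.87, against 5.61 to 5.91) and the chemokine CXCL10 (5.47, against 3.78 to 4.22). Paraquat 18 was low for GBP3 (3.62, against 3.98 to 4.13) and high for IFITM1 (4.43, against 4.04 to 4.12). Paraquat 14 was high for EIF2AK2 (8.08, against 7.11 to 7.28) and JAK2 (6.90, against 6.33 to 6.39), and low for the DNA sensor AIM2 (2.03, against 2.34 to 2.42). Paraquat 8 was low for CISH, a SOCS relative (5.998, against 6.24 to 6.34), and high for XAF1 (8.14, against 7.23 to 7.48). Paraquat 20 was high for IFNA6 (5.22, against 4.09 to 4.33). Ctrl 7 was low for STING1 (5.44, against 5.76 to 5.85), and ctrl 19 was high for TRIM22 (4.06, against 3.69 to 3.73).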

How the results depend on the processing

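Of the 14 members that passed, 12 did so in all 10 fits that left out 1 array, and IFI6 and IFI44L did not. Only 6 kept the call in every alternative that tested them: IRF1, IRF2BP2, SOCS1, ISG20, IFI30 and IFIT1. IRF7, IRF2BPL, STAT4, OAS1, IFIT5 and IFI27L1 lost it against a minimum fold of 1.2, as did IFI6 and IFI44L. At the threshold of 0.01, IRF7, IRF2BPL, IFI6 and IFI44L lost it. No member with a call changed direction under any of the 20 alternatives. With 1 array left out, 7 to 9 members were higher and 5 to 7 lower, 6 to 8 regulators were higher and 0 to 1 lower (1 without ctrl 19), and 1 to 2 effectors were higher (2 without paraquat 18) and 5 to 7 lower. With array weights, 11 members were higher, 4 of them effectors, and 1 regulator was lower; GBP3, GBP4, IFI16, IRF5, ISG20L2, MX1 and SOCS3 joined. After median centring 2 effectors were higher and 5 lower, as IFI6 and IFI44L lost their calls. Against a minimum fold of 1.2, 4 members were higher, 3 of them regulators, and 2 were lower, both effectors. Without the dimmest 33.3% of rows, 4 effectors were lower, the only members lower, since IFIT1, OAS1 and IFI44L were not tested there. Other scalings, moderation and the threshold of 0.01 kept each count within 1.5 times. Among further genes that did not pass with all arrays as deposited, PTPN2, CISH and PLSCR1 passed without ctrl 11, IFNA5 without ctrl 13, EIF2AK2 without paraquat 14, and SAMD9 without paraquat 8 or 14. The cause of these differences was not tested. Each member had 1 row, so the choice of row altered none. The groups share no number in the labels, but titles run consecutively (ctrl 7 and paraquat 8, for example). Deviations of such arrays from their group means correlated at 0.0912 to 0.461 across rows, 3 of 5 paraquat arrays correlated best with their own neighbour, and they were not taken as pairs. With consecutive numbers as a replicate block, added after the data were seen, 9 members were higher and 9 lower, 2 effectors were higher and 1 regulator lower; GBP3, GBP4, IRF5, SOCS3, JAK1, JAK2, CISH and HERC5 gained a call, and TRIM21 and CXCL11 lost theirs. Without detection calls, rows in the dimmest 20% cannot be told from background.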
